A study of Homo sapiens with 4 samples.

Results

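The 500 strongest reproducible binding sites of CEBPB were taken from 25602 distinct reproducible regions mapped by ChIP-seq in NCM460, a cell line derived from human colon epithelium. They were chosen by the fold enrichment over input that the peak lists give: it was averaged over the 2 CEBPB ChIP samples at each region on chromosomes 1 to 22 and X, and the 500 highest averages were kept. The series comprised 2 ChIP samples, immunoprecipitated with an antibody to CEBPB, and 2 input samples of the same line, grown in medium with serum, with no treatment named in the labels; the replicates came from independent experiments. Each ChIP sample had a peak list, and a further table listed the regions that ranked alike in both, with an irreproducible discovery rate (IDR) of at most 0.05. All 500 sites were accounted for in both lists. A single cell line in culture stands for the colon epithelium only in part.

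CEBPB is a basic leucine zipper transcription factor that binds DNA as a dimer with itself or with another member of the C/EBP family. It is known for its part in acute phase and inflammatory gene expression, in the differentiation of fat and epithelial cells, and in the response to interleukin 6. Many of its binding sites in other cells lie in enhancers away from gene starts. No sequence or gene annotation of the build of the peak lists, hg19, was used here. Sites are therefore given by position, counted from 1, and by cytogenetic band. A gene is named only as one that the band is known to carry, and no site is assigned to it.

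The fold of the authors is the ChIP signal at the summit over a background estimated from input, and it is the value that chose the sites, so folds are given as a description. The 500 sites had mean folds of 42.7 to 75.7 with a median of 47.1, and the other 25102 regions had a median of 15.7. In replicate 1 the 500 sites had a median fold of 50.02, with a lowest of 22.6 and a highest of 86.1. In replicate 2 the median was 45.7, with a lowest of 19.8 and a highest of 83.2. The threshold fell in a continuous range of values. The last sites inside it lay in 2p21 (mean fold 42.74), 2q12.2 (42.71) and 1q31.2 (42.71), and the first outside it in Xp11.22 (42.70), 11p13 (42.69) and 11q24.2 (42.68). The SD between the replicates had a median of 8.03 (quartiles 3.98 and 15.3), whereas the quartiles of the mean folds of the 500 sites were 44.7 and 51.0, so neighbours in the order did not differ beyond this spread.

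**Figure D1:**
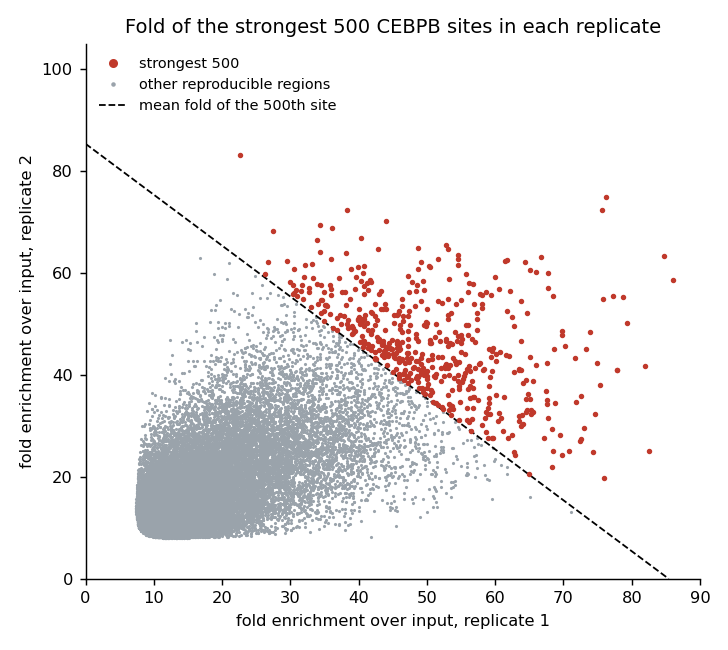
Fold enrichment over input in replicate 1 (horizontal axis) and replicate 2 (vertical axis) at the strongest 500 sites and at the other reproducible regions. The dashed line marks the mean fold of the 500th site, 42.7, and the sites lie above it, some with a high fold in 1 replicate only.

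The highest mean fold belonged to a region of 21q22.12 (chromosome 21, 36880635 to 36881196), whose folds were 76.3 in replicate 1 and 75.05 in replicate 2. This band carries RUNX1, a transcription factor of blood and epithelial cells, and it held 2 further strong sites. One of them, at 36207760 to 36209187, had folds of 49.1 and 62.1. The other, at 36147037 to 36147428, had folds of 45.8 and 45.7. The replicates were close at the first and the last of these sites and farther apart at the middle one.

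Bands of 2 tribbles genes stood among the first 10 sites. TRIB1 and TRIB2 are pseudokinases known for directing C/EBP alpha, a relative of CEBPB, to degradation. Band 8q24.13, which carries TRIB1, held the site ranked 2 on chromosome 8 at 126442303 to 126442711, with folds of 84.7 and 63.3 and with 233 and 241 fragments. It also held the site ranked 9, at 126244806 to 126245513, with folds of 79.3 and 50.2. Band 2p24.3, which carries TRIB2, held the site ranked 8 on chromosome 2 at 12596408 to 12597305, with folds of 66.7 and 63.3. The site ranked 10 lay in 2q31.2 (chromosome 2, 178029246 to 178029742) with folds of 67.7 and 60.1, and this band carries NFE2L2, the transcription factor NRF2 of the oxidative stress response.

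The remaining sites of the first 10 lay in 6q24.3, 7q21.3, 4q32.2, 14q22.2 and 1q44. The site in 6q24.3 (chromosome 6, 147178577 to 147179122) had folds of 75.7 and 72.3. In 7q21.3, a band that carries the collagen gene COL1A2, the site on chromosome 7 at 93895456 to 93895983 had the highest fold of all regions in replicate 1, 86.1, and 58.7 in replicate 2. The site in 4q32.2 (chromosome 4, 163418713 to 163419200) had folds of 78.7 and 55.2. The site in 14q22.2 (chromosome 14, 55023281 to 55023728) had folds of 77.3 and 55.5, and the band carries GCH1, which encodes the first enzyme of tetrahydrobiopterin synthesis. The site in 1q44 (chromosome 1, 244185526 to 244186032) had folds of 75.9 and 55.0. All of the first 10 sites were among the first 500 of each replicate taken alone.

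A fold has 2 parts, which were separated by recovering the whole number of extended ChIP reads, called fragments here, and the background at each summit. At the median of the 500 sites there were 170.5 fragments in replicate 1 (lowest 87, highest 277) and 198.5 in replicate 2 (lowest 100, highest 293). At the other regions the medians were 57 and 75. The background, in expected fragments, was 2.00 in replicate 1 and 2.18 in replicate 2 at the median of the 500 sites, against 2.19 and 2.71 at the other regions. Both parts belong to the fold that chose the sites, so these differences are a description. If 1 read is kept per position and strand, no summit can exceed 306 fragments in replicate 1 and 312 in replicate 2. In both replicates 321 of the 500 sites (64.2%, 95% exact binomial interval 59.8 to 68.4%), the first 10 included, were above 50% of this inferred ceiling, and 1505 of the other regions (6.0%) were. Such intervals cover counting error only, and regions are not independent. At the next 500 regions by mean fold, 239 (47.8%) were above 50% of the ceiling in both replicates. Fragments above the 90th percentile of all reproducible regions (140 in replicate 1 and 165 in replicate 2) were found at 383 of the 500 sites (76.6%) in replicate 1 and at 387 (77.4%) in replicate 2.

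**Figure D2:**
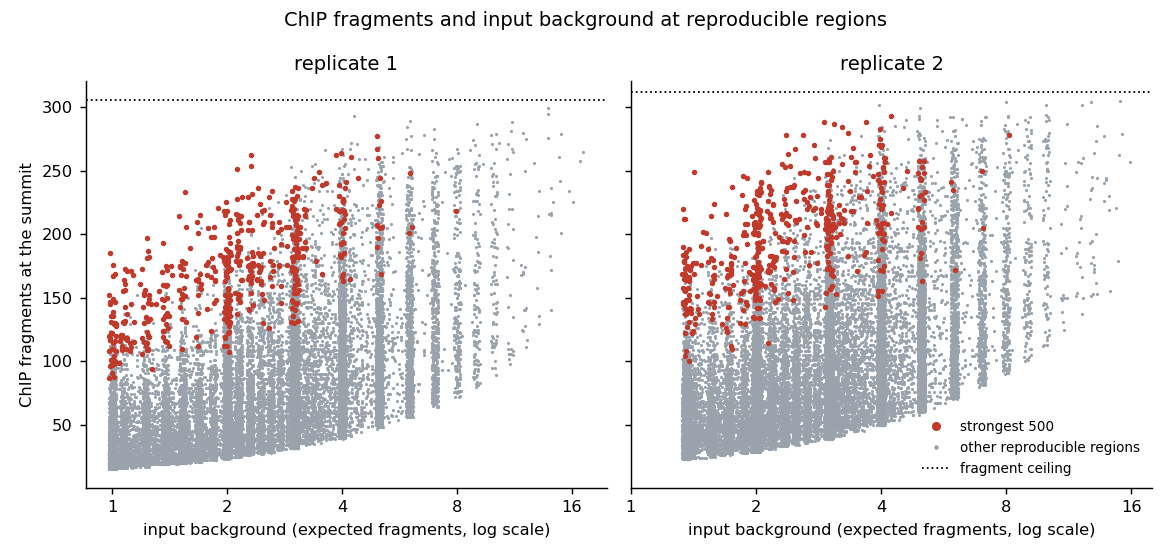
ChIP fragments at the summit (vertical axis) against the input background in expected fragments (horizontal axis, log scale) for the strongest 500 sites and the other reproducible regions, with points moved slightly sideways. The 500 sites run along the upper left edge, with at least 87 fragments in replicate 1 and 100 in replicate 2, and many regions with as many fragments lie to their right at a higher background. The dotted line is the inferred ceiling of 306 fragments in replicate 1 and 312 in replicate 2.

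Among the 500 sites the Spearman correlation between replicates was 0.86 for fragments and 0.20 for background. Over all 25602 regions it was 0.89 and 0.59. For fold it was -0.49 among the 500 sites and 0.61 over all regions. Choosing sites by the sum of both folds trades the folds, and with them the backgrounds, of the replicates against each other, so the lower values for fold and background among the 500 sites follow in part from the choice. These correlations run across sites of the same libraries, which are no replicates. The ratio of the folds of replicates 1 and 2 at a site correlated with the inverse ratio of the backgrounds, each with 1 added, at 0.93. It correlated with the ratio of fragments at 0.27. The fold is calculated from fragments and background, so these 2 values are a description and a cause was not tested. The folds differed by 1.5 times or more between the replicates at 152 of the 500 sites (30.4%). This was alike at the other regions (29.6%) and at the next 500 regions by mean fold (32.4%). At 151 of the 152 strong sites with such a difference, the ratio of fragments lay within 1.5 times of its median over the 500 sites. It lay outside this range at only 5 of all 500 sites (1.0%), so the count is near the share over all of them.

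The site with the largest SD of fold between replicates, 42.9, was chosen after the values were seen. It was ranked 87 and lay in 2q35 on chromosome 2 at 219671013 to 219671604. Its folds were 22.6 in replicate 1 and 83.2 in replicate 2, the highest of replicate 2. Its fragments were 218 and 249. Its background was 8.00 in replicate 1 and 1.40 in replicate 2. The site ranked 74, in 17q22 (chromosome 17, 56818381 to 56819042), went the other way, with folds of 82.5 and 25.1, 197 and 250 fragments, and backgrounds of 1.22 and 7.0. Which of the 2 input samples, or whether both, lay behind each background is not stated in the labels, so a difference in background is one between the values the caller used.

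The backgrounds rest on few input fragments. Each value matched, within 0.0005, the floor that the caller sets for the genome, a whole number of input fragments at the summit, or a count in a window of 1 kb or 10 kb scaled to the fragment length. In replicate 1 the background of 166 of the 500 sites (33.2%) was the count at the summit, that of 237 (47.4%) came from the 1 kb window, that of 60 (12.0%) from the 10 kb window, and 37 (7.40%) sat at the floor. In replicate 2 the numbers were 172, 216, 71 and 41. The other regions had the summit count more often, with 43.4% in replicate 1 and 43.5% in replicate 2. They also sat at the floor more often, with 10.2% and 10.8%. At the 463 and 459 strong sites above the floor, 10 input fragments in replicate 1 and 12 in replicate 2 lay behind the background at the median, with a lowest of 2 in each. Few input fragments were not particular to the strong sites. At the other regions above the floor the medians were 8 and 9, with the same lowest of 2. At the next 500 regions by mean fold both medians were 10. In the site of 2q31.2 named above, for example, the background of replicate 1 was 2 input fragments at the summit and that of replicate 2 came from 14 within 1 kb. At 9 sites (1.8%) both replicates were at the floor, against 5.0% of the other regions. The 9 sites had 87 to 122 fragments in replicate 1 and 137 to 190 in replicate 2. Their fold rests on the value the caller sets for the genome and not on input counted near the site.

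To see how far the choice holds between the replicates, the 500 highest folds of each replicate were looked up in the other. Both lists were drawn from the reproducible regions, which ranked alike in both replicates. The other replicate thus helped decide which sites could be chosen, and the look-up is not independent of it. The 500 chosen in replicate 1 had a median fold of 53.1 there and of 35.3 in replicate 2, and the 500 chosen in replicate 2 had 49.3 there and 37.2 in replicate 1. Of each list, 121 sites (24.2%, interval 20.5 to 28.2%) were also among the first 500 of the other replicate, where 500 of all 25602 regions lay. By fold in replicate 2, the list of replicate 1 had a median rank of 1486 among these regions. The list of replicate 2 had a median rank of 1442 in replicate 1. All 121 were among the 500 sites described here, as a fold that high in both replicates entails. They included all of the first 10. Of the 500 sites, 189 were in the list of replicate 1 only, 164 in that of replicate 2 only and 26 in neither. The median background at the 500 chosen in replicate 1 was 1.84 in that replicate and 3.00 in replicate 2. At the 500 chosen in replicate 2 it was 2.00 in that replicate and 3.00 in replicate 1. The number of fragments held up better: the 500 with the most fragments in each replicate shared 394 (78.8%, interval 74.95 to 82.3%), and the 500 with the highest −log10 p shared 254 (50.8%, interval 46.3 to 55.3%).

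**Figure D3:**
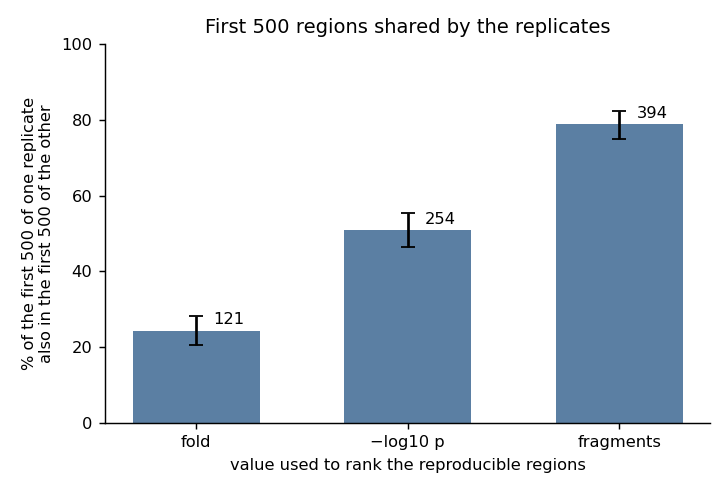
Share of the first 500 reproducible regions of one replicate that were also among the first 500 of the other (vertical axis, %), when regions were ranked by fold, by −log10 p or by fragments (horizontal axis). Bars carry the number shared, 121, 254 and 394, and error bars are 95% exact binomial intervals. Each list takes up 500 of the 25602 regions.

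The strongest sites by fold and by fragments overlapped in part. Of the 500 sites, 84 were also among the 500 with the most fragments over both replicates, and the median rank of the 500 sites by fragments was 1248. Each of these lists takes up 500 of the 25602 regions. Over all regions mean fold and mean fragments had a Spearman correlation of 0.80, and the fold is calculated in part from fragments. The 5 of the 500 sites with the most fragments outside the first 10 lay in 1p35.2, 10q22.1, 15q26.1, 15q22.2 and 11q13.2. The first, on chromosome 1 at 31583966 to 31584510, had 277 and 287 fragments, backgrounds of 5.00 and 3.12, and folds of 42.9 and 56.0. The site in 10q22.1 (chromosome 10, 72062010 to 72062571) had 262 and 293 fragments and folds of 73.3 and 45.1, over backgrounds of 2.33 and 4.21. The others were at chromosome 15, 93346821 to 93347965 (267 and 288 fragments), chromosome 15, 63539189 to 63539834 (261 and 280), and chromosome 11, 67296799 to 67297377 (262 and 278).

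The 416 regions with most fragments that were not among the 500 sites had a median of 233 and 253 fragments, more than the 170.5 and 198.5 of the 500 sites, over a median background of 6.0 in each replicate. Their backgrounds came from the count at the summit at 312 of 416 regions (75%) in replicate 1 and at 300 (72.1%) in replicate 2. The region with the most fragments of all lay in 5p13.2 on chromosome 5 at 36657517 to 36658099. It had 299 and 304 fragments, backgrounds of 14 and 13, and folds of 18.5 and 17.4, which placed it at rank 10248 by mean fold. Fragment numbers near the ceiling may be compressed, and the part of this in the ranks was not tested.

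To ask whether any of the 500 sites differed between the libraries beyond counting noise, fragments were tested at all 25602 regions against the median share of replicate 2 among regions of like height (exact binomial tests, two-sided, with Benjamini-Hochberg adjustment over all regions and a threshold of 0.05). Of the 500 sites 6 differed (1.20%), against 3.17% of all regions, and 36 had an unadjusted p under 0.05 (7.20%, against 16.7% of all regions). The fragments are part of the fold that chose the sites, and a high mean over both replicates disfavours sites that differ, so nothing is read from the lower share. The ratio of fragments of replicate 2 to replicate 1 had a median of 1.15 at the 500 sites (quartiles 1.07 and 1.25) and of 1.297 at the other regions (quartiles 1.10 and 1.58). The tests compare 2 libraries and not conditions.

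The 6 sites with a difference had 5 with more fragments in replicate 2 (1.00% of the 500 sites, against 1.36% of all regions) and 1 with more in replicate 1 (0.20%, against 1.81%). The single site with more in replicate 1 lay in 8q22.1 (chromosome 8, 96805043 to 96805646), with 146 and 104 fragments and an adjusted p of 0.0042 by the exact binomial test. The site in 1q41 (chromosome 1, 222226899 to 222227577) had 99 and 187 fragments, with an adjusted p of 0.018 by the same exact test. The site in 4q22.3 (chromosome 4, 95262562 to 95263040) had 104 and 190 fragments, with an exact test adjusted p of 0.023, and its background was at the floor in both replicates. Sites in 11q22.3 (chromosome 11, 110168547 to 110169608), 5q23.2 (chromosome 5, 121728466 to 121729366) and 4p16.3 (chromosome 4, 2431555 to 2432571) had 110 and 194, 142 and 233, and 126 and 210 fragments, with adjusted p of 0.030, 0.036 and 0.048 by the exact test. At 4p16.3 the summits of the replicates lay 390 bp apart in a region with several summits, so the compared positions are not the same there.

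The strong sites were wider than the others and their summits were more closely placed, which are features of the same peaks that chose them. Their median width was 583 bp (quartiles 500 and 739 bp), against 418 bp (335 and 558 bp) at the other regions. The next 500 regions by mean fold had a median of 581 bp. The distance between the summits of both replicates was 5 bp at the median, against 8 bp at the other regions. It was within 10 bp at 426 of the 500 sites (85.2%), against 59.8% of the others. At the next 500 regions by mean fold the median distance was 4 bp, and 85.8% were within 10 bp. More than 1 summit in either replicate was found at 89 of the 500 sites (17.8%, interval 14.5 to 21.4%), against 15.6% of the others. The widest site, in 8q21.2 (chromosome 8, 86847651 to 86849374), spanned 1724 bp with 4 summits in each replicate and folds of 62.2 and 56.5. The narrowest, in 16q24.1 (chromosome 16, 84651718 to 84651994), spanned 277 bp with folds of 52.9 and 42.2.

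Position was not used to choose the sites. Of the 500 sites 123 (24.6%, interval 20.9 to 28.6%) had another reproducible region within 5 kb, against 22.97% of the other regions, and 382 (76.4%, interval 72.4 to 80.1%) had one within 50 kb, against 75.5%. These differences were not tested. Another strong site lay within 50 kb of 34 strong sites, in 17 pairs, with no group of 3 or more. Strong sites were 500 of all 25602 regions, and a region had a median of 1 other region within 50 kb. Whether 34 is few or many for such a share was not tested. The 3 closest pairs lay in 2q35, 5q14.3 and 7q33. In 2q35 the sites on chromosome 2 at 216484553 to 216485220 and 216489079 to 216489601 had mean folds of 49.3 and 49.1. In 5q14.3 the sites on chromosome 5 at 90442076 to 90442556 and 90447708 to 90448157 had 45.8 and 47.0. In 7q33 the sites on chromosome 7 at 137919160 to 137919768 and 137930442 to 137930888 had 52.1 and 42.9. Neighbours of strong sites were mostly weaker regions, as the choice by fold entails: of 382 strong sites with another region within 50 kb, 365 were the strongest there. The most isolated, in 6q16.1 (chromosome 6, 96022669 to 96023116), had no other reproducible region within 958260 bp and folds of 68.5 and 55.5.

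The 500 sites lay in 317 of the 801 bands with a reproducible region, and band 8q24.13 held the most, 8 of its 82 regions (9.76%). Over all bands the strong sites were 500 of 25602 regions. Bands 2q35 and 5q23.2 held 5 each, of 55 and 75 regions. Bands 11p13, 15q14, 19p13.2, 1q21.3, 1q41, 2p21, 2q11.2, 7p21.1, 8p21.3, 9p13.3 and Xp22.2 held 4 each. Each of these bands carries many genes, and none was linked to a site. Bands differ in length and in regions, and no test of the counts was made.

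In 8q24.13, 6 of the 8 strong sites lay within 250 kb of the strongest and spanned 361 kb, among 28 weaker regions with a median mean fold of 18.5 and a highest of 35.3. Beside the sites ranked 2 and 9 they were at 126285367 to 126285998 (folds 39.5 and 56.8), 126463993 to 126464634 (52.1 and 38.9), 126525162 to 126525988 (35.1 and 53.8) and 126606082 to 126606630 (74.6 and 32.3). Their fragments were 159 and 215, 210 and 242, 226 and 213, and 215 and 201. The last of them had backgrounds of 1.68 and 4.0, and its fold differed most between the replicates of the 6 sites. The 2 strong sites farther away lay at 122709561 to 122710383 (67.8 and 31.5) and 124179469 to 124180296 (55.8 and 59.8). The site ranked 2 had 10 other reproducible regions within 50 kb, the most of any of the 500 sites.

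**Figure D4:**
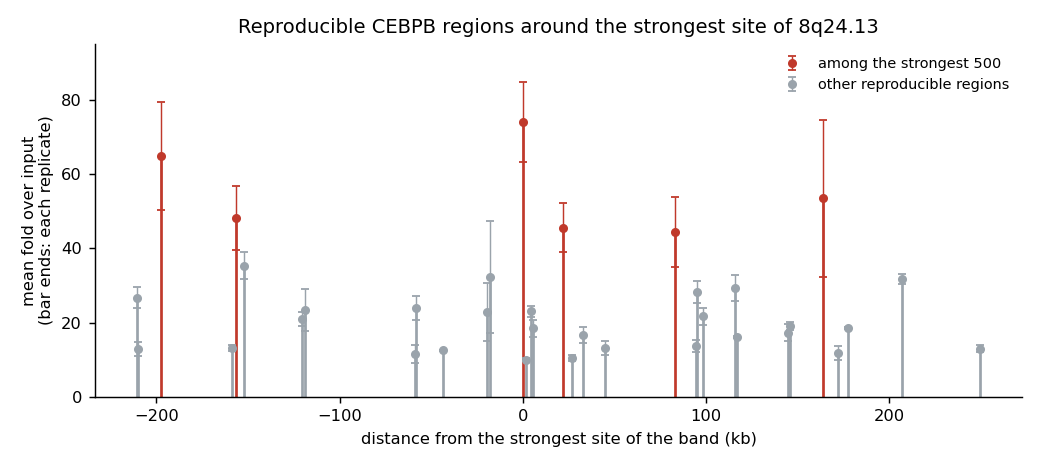
Mean fold over input (vertical axis; bar ends are the folds of each replicate) of the reproducible regions within 250 kb of the strongest site of 8q24.13, by distance from that site (horizontal axis, kb). The 6 strong sites rise above 28 weaker regions, as the choice by mean fold entails. None of the weaker regions exceeds a mean fold of 35.3.

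In 2q35 and in 5q23.2, 4 of the 5 strong sites had the higher fold in replicate 2. In 5q23.2, which carries LMNB1, the nuclear lamin B1 gene, the strongest site (chromosome 5, 124299084 to 124299730) had folds of 50.3 and 61.4 and 236 and 267 fragments. The site at 127059246 to 127059805 had 40.8 and 61.4, that at 121814695 to 121815189 had 51.2 and 47.5, and that at 126011814 to 126012314 had 32.0 and 59.3. In 2q35 the site at 217548574 to 217549105 had folds of 36.2 and 68.8, with 194 and 246 fragments, and that at 217930559 to 217931223 had 34.5 and 54.7. Over the 500 sites as a whole the fold was higher in replicate 1 at 300 (60.0%), against 45.1% of the other regions. This was not particular to them: the share was 55.0% at the next 500 regions by mean fold. It was 58.0% at the 500 regions with the most fragments.

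By chromosome, 63 of the 500 sites lay on chromosome 2 (12.6%, where 7.62% of all regions lay) and 39 on chromosome 8 (7.80%, against 4.84%). Chromosome 20 held 6 (1.20%, against 2.52%). By arm, 43 of 1165 regions of 2q (3.69%, interval 2.68 to 4.94%) and 11 of 259 of 9p (4.25%, 2.14 to 7.47%) were among the 500 sites, whereas 1 of 366 regions of 5p (0.27%, 0.0069 to 1.51%), 1 of 391 of 12p (0.26%, 0.0065 to 1.42%) and 2 of 444 of 20q (0.45%, 0.055 to 1.62%) were. These 4 sites, in 5p15.31, 12p13.2, 20q11.21 and 20q13.2, had mean folds of 43.4, 43.3, 46.1 and 44.0. On 9p, 3 of the 11 sites lay in 9p11.2, a band with only 9 reproducible regions. Over all arms the strong sites were 500 of 25602 regions.

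The background of the arms tended to run opposite to these shares of strong sites. Its median at the reproducible regions was 4.71 and 5.00 expected fragments on 5p in replicates 1 and 2, 3.52 and 4.0 on 12p and 3.06 and 3.74 on 20q, against 1.99 and 2.00 on 2q and 2.00 and 2.00 on 9p. The 500 regions with the most fragments were placed otherwise, with 35 on 5p, 17 on 12p and 24 on 20q, but 6 on 2q and 2 on 9p. Over 41 arms with at least 50 regions, the share of regions among the 500 sites had a Spearman correlation of -0.48 with the median background of the arm, and the share among the 500 with most fragments one of 0.89. Both are descriptions: the arms share libraries, and background is part of the fold. Arm 18q went against the trend, with the lowest background of these arms and 3 of 310 regions among the 500 sites (0.97%).

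**Figure D5:**
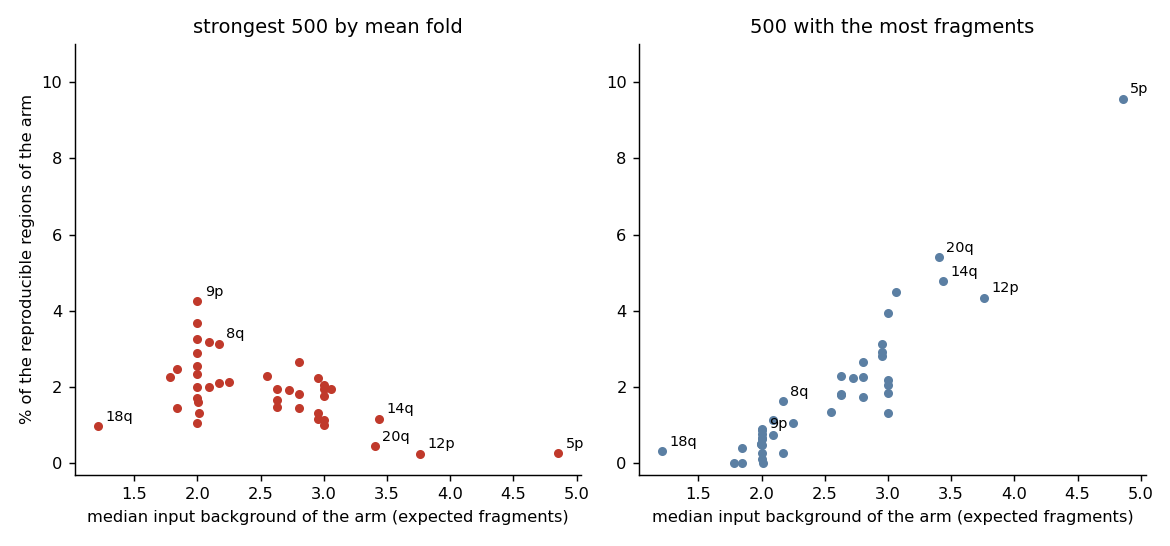
Share of the reproducible regions of each chromosome arm (vertical axis, %) that were among the strongest 500 sites by mean fold (left) or among the 500 with the most fragments (right), against the median input background of the arm in expected fragments (horizontal axis). Each point is an arm; 5p, with a background near 5, holds 1 strong site by fold and 35 of the regions with most fragments.

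The stain classes of the bands, which follow gene density, set the strong sites little apart from the other regions. Giemsa-negative bands held 271 of the 500 sites (54.2%, interval 49.7 to 58.6%) and 53.0% of the others, and the darkest bands held 53 (10.6%, 8.04 to 13.6%) and 11.1% of the others. The lightest Giemsa-positive bands held 34 (6.80%, 4.75 to 9.37%), against 9.66% of the others. Per Mb of Giemsa-negative bands there were 0.21 strong sites (95% exact Poisson interval 0.19 to 0.24), and per Mb of the darkest bands 0.11 (0.080 to 0.14). The differences between strong sites and other regions were not tested.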

How the data were processed

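CEBPB ChIP and input DNA of NCM460 cells was sequenced in 2 replicates each. The submitters' processing notes name Bowtie2 2.3.4, MACS2 2.1.2 and hg19, with no settings. In the peak lists deposited by the authors, called per ChIP sample against input per the file headers (which input sample is not stated), each summit has a fold enrichment (a ratio), a −log10 p and a −log10 q. The authors' deposited IDR table gives a score per region, the −log10 of the global IDR; 2 columns of its per-sample values were not used. Duplicate handling is not stated in the sources at hand.

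The 500 sites and the lists were chosen with earlier results of these data known. For each distinct interval of the IDR table, the highest fold among the matching intervals was taken in each list. Fragments and background were solved from fold and −log10 p, with a pseudocount of 1 and a scale of 0.927 (replicate 1) and 0.800 (replicate 2) per ChIP read; 100% of summits gave whole fragments within 0.005 on −log10 p, as did 100% of 4000 simulated summits per replicate. The background cannot fall below a floor of 1.00 and 1.36. The shortest peaks, 153 and 156 bp, were taken as the fragment lengths, and ceilings of 306 and 312 fragments as 1 read per position and strand. Total read numbers are not held in the lists; floors and scales imply 1.54 times more ChIP reads in replicate 2. Replicate differences used the median share of 1001 regions of like height; in simulated counts for that comparison, over 25602 regions, the test called 91.5% of 200 regions given a 3-fold change and 14 of the rest. Named sites were the first 10, the 3 on each side of the threshold, those with a replicate difference, the 5 with most fragments beyond the first 10, pairs of sites within 12.5 kb and the bands with most sites. A near neighbour is another reproducible region within 12.5 kb. Intervals are exact at the 95% level. Bands came from circlize 0.4.16; Python 3.11.15, SciPy 1.17.1 and statsmodels 0.14.6 were used.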

Additional observations from a re-analysis of the deposited data

Results flagged for a closer look

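A region outside chromosomes 1 to 22 and X, on the unlocalised sequence gl000202 of chromosome 11, had a mean fold of 49.9, above the 500th of the strongest sites, with folds of 60.0 and 39.9 and 143 and 173 fragments. It drew attention because it lies in data that the choice of sites leaves out. Of 225 distinct intervals outside these chromosomes, 2 had a mean fold above that of the 500th site.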

How the results depend on the processing

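The list of sites depended on the value that ranks the regions. Of the 500 sites, 285 to 310 remained when a replicate was left out of the choice, 212 when regions were ranked by the mean −log10 p and 84 by the mean of fragments. Under the lower of both folds, the geometric mean and an IDR of at most 0.01, 368, 469 and 500 remained. The 121 sites shared by the first 500 of each replicate became 254 by −log10 p and 394 by fragments, the last chosen after seeing the data. The 6 sites with a replicate difference became 5 to 7 in 4 other settings. The median background of 2.09 over both replicates became 2.32 with 1000 sites, 5.41 by fragments and 2.42 to 2.50 without a replicate. Ranked by fragments, 24.2% of sites had more than 1 summit in place of 17.8%, and 53.2% a near neighbour (the distance limit is given with the processing) in place of 40.8%; with limits of 5 kb and 50 kb in its place the share was 24.6% and 76.4%, by construction. Sites on 5p, 12p and 20q, a set chosen after seeing the data, made up 0.80%, and became 0% of 250 sites, 1.7% of 1000 sites, 15.2% by fragments, 1.4% without replicate 1 and 0.80% without replicate 2. The Giemsa-negative share was 49.8 to 56.8% in the 5 alternatives run. Where no construction shows it, the cause was not tested. No paired analysis was possible because input enters each fold only as the background of the peak caller, with no values per input sample and no test of ChIP against input. The ceiling on fragments and the few input fragments behind each background limit the order among strong sites.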
